A study of Mus musculus with 26 samples.

Results

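The NuRD (nucleosome remodelling and deacetylase) complex is described here through the RNA of 10 genes that encode its subunits, Mbd3, Mbd2, Chd3, Chd4, Hdac1, Hdac2, Mta1, Mta2, Gatad2a and Gatad2b. RNA 5-hydroxymethylcytosine (5hmC) had been mapped by hMeRIP-Seq, in which fragmented RNA is pulled down with an anti-5hmC antibody and sequenced beside its own input. The material was mouse embryonic stem cells (ESCs) and embryoid bodies (EBs), the aggregates that ESCs form as they differentiate. Each of the 13 immunoprecipitated (IP) libraries was represented by a list of peaks, which are stretches with more IP than input reads. A peak belonged to a member when its summit, the midpoint of the listed interval, lay within the span of that gene. Of 56538 peaks, 77 met this rule, and overlapping intervals merged into 30 regions of 23367 in all. All 10 members had at least 1 peak.

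The 3 WT ESC libraries came from wild-type ESCs, and the 3 TKO ESC libraries from an ESC line, made in earlier work, in which Tet1, Tet2 and Tet3, the dioxygenases that oxidise 5-methylcytosine, were all knocked out. The 3 WT EB libraries came from wild-type ESCs left to differentiate for 4 days without leukaemia inhibitory factor. The 2 Tet2-KI ESC libraries came from WT ESCs with a tag knocked in at the C-terminus of endogenous Tet2, and the 2 Tet2deltaRBD-KI ESC libraries from the same knock-in lacking the RNA-binding domain of Tet2; these were picked clones. The study describes its replicates as independent biological experiments, and any p-value measures the spread between these libraries.

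WT ESC lists held 4395 to 7113 peaks, TKO ESC lists 964 to 4323, WT EB lists 498 to 3532, Tet2-KI ESC lists 5781 to 10383 and Tet2deltaRBD-KI ESC lists 3318 to 4639. The shortest, TKO ESC replicate 1 and WT EB replicate 1, had 0 and 1 member peaks, so each comparison is also given without them. Read depth is unknown, so a region with no peak is only a region where none passed the threshold. No pair of the 13 lists shared more than 1.97% of its intervals exactly. Peaks do not measure expression and could not check the knockout. Tet1 itself had a peak in 11 libraries, all 3 TKO ESC libraries among them.

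NuRD joins the removal of acetyl groups from histones to the ATP-driven movement of nucleosomes, and it generally lowers transcription. Mbd2 and Mbd3 are alternative methyl-CpG-binding domain subunits, Chd3 and Chd4 are the remodelling ATPases, and Hdac1 and Hdac2 are the deacetylases. Mta1 and Mta2 are scaffolds that hold the deacetylases, and Gatad2a and Gatad2b bridge the scaffold side to the remodeller. In ESCs the complex is known for limiting expression of pluripotency genes and for allowing exit from self-renewal.

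The sequences below were chosen for presence in many libraries or for their base composition, and are not a typical draw from the regions. They are read from NCBIM37, the assembly behind mm9, 5′ to 3′ on the strand of the gene, with runs of 8 or more purines (A or G) in capitals. The regions at exons 12 and 13 of Hdac2 were those in most libraries. The Mbd3 5′ UTR region was present in every WT ESC library. Chd4 exon 35 is shown for a purine run at its 5′ border, and the introns of Gatad2a gave the highest and the lowest purine content of all 30 regions.
Hdac2-3, exon 12, chr10:36718180-36718425 on the plus strand: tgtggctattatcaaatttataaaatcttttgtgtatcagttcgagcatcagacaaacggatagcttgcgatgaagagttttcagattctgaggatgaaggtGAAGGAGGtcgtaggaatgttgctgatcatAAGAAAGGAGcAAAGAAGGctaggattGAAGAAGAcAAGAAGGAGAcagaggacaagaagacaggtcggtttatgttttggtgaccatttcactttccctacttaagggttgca
Hdac2-4, exon 13 and the introns beside it, chr10:36720016-36720253 on the plus strand: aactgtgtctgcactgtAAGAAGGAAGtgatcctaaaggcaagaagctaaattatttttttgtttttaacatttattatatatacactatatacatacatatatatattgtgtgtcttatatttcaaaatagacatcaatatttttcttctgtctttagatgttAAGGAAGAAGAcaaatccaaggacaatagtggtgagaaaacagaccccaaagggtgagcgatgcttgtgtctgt
Chd4-5, exon 35, chr6:125072800-125072999 on the plus strand: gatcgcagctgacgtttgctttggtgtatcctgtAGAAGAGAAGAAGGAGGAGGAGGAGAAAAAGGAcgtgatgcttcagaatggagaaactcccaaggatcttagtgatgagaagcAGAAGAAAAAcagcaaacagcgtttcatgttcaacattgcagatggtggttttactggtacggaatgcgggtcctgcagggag
Gatad2a-2, intron, chr8:72487946-72488179 on the minus strand: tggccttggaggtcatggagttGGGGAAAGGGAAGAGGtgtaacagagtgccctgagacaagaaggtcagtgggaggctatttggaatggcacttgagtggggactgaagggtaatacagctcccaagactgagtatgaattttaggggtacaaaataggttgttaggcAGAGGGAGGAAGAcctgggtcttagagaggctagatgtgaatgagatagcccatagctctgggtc
Gatad2a-1, intron, chr8:72492899-72493098 on the minus strand: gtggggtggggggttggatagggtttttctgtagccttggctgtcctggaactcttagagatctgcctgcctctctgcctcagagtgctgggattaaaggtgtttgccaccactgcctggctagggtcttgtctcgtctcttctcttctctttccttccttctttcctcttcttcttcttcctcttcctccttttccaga
Mbd3-1, 30 bases at the middle summit in the 5′ UTR, chr10:79862017-79862046 on the minus strand: gggggtcgcaacttgcagaagcggcggcgg

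Regions were named by gene and numbered 5′ to 3′ along the transcript. Most of the sequences shown hold GAGGA or GAAGA, though some were chosen for their purine content. In the 200 bp around the middle summit of each region, read on the strand of the gene, purines made up 33.0% to 68.0% of the bases, with a median of 56.8%. In 28 of the 30 regions purines exceeded 50%, against 79.3% of all 19450 regions in coding genes, whose median purine content was 57.5%. The exceptions were Gatad2a-1, with 33.0% purine and a pyrimidine run of 61 bases, and Mbd3-3 in the 3′ UTR, with 43.0%. The median of the NuRD genes thus lay close to that of all genes with peaks.

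GAGGA occurred in 18 of the 30 regions against 41.8% of all coding-gene regions, and GAAGA in 15 against 42.0%. The complements were less frequent, with TCCTC in 4 regions against 14.9% and TCTTC in 9 against 15.4%. These letters were searched on the strand of the gene only, GAGGA and GAAGA can overlap each other, and they were chosen after the sequences had been read. Runs of at least 12 purines were present in 5 of the 30 regions, a smaller share than the 34.2% of all coding-gene regions. Runs of at least 12 pyrimidines were also present in 5, a larger share than the 11.7% of all. The run of 33 purines in Chd4-5, not the longest of the set, began at the last bases of the intron and continued into exon 35. No 50-base word of any of the 30 regions was found a second time in the genome, on either strand.

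**Figure D1:**
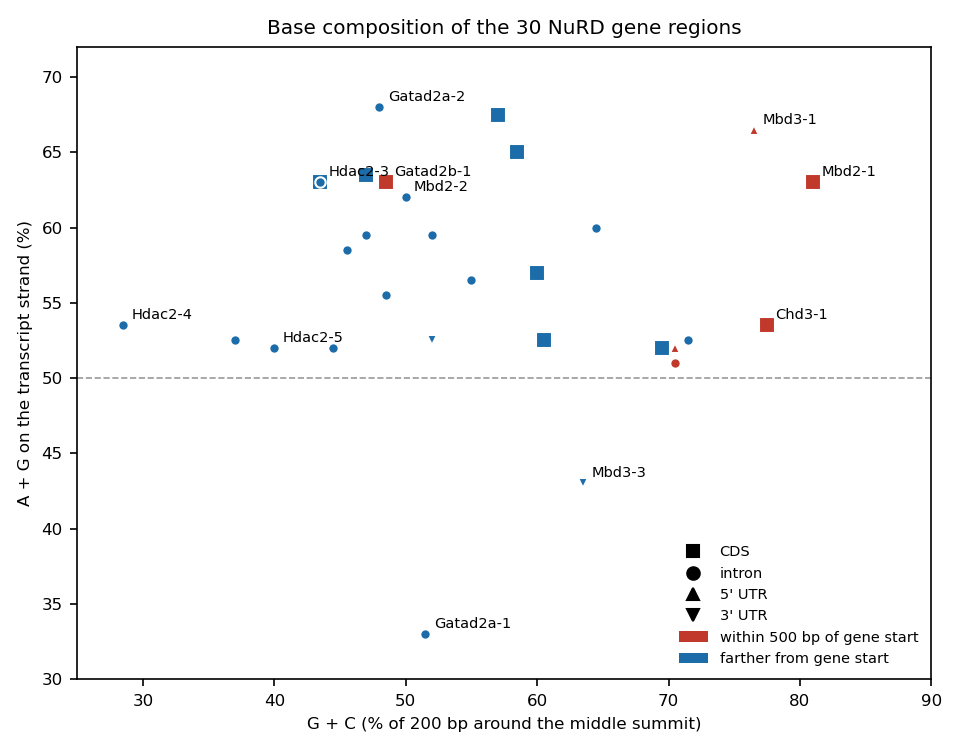
Base composition of the 30 member regions, with the G + C percentage of the 200 bp around the middle summit on the x axis and the A + G percentage on the strand of the gene on the y axis. Squares are coding, circles intronic and triangles UTR regions, red regions lie within 500 bp of the annotated gene start, and all but Gatad2a-1 and Mbd3-3 lie above the dashed line at 50% purine.

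By summit, 16 regions were intronic, 10 lay in coding sequence (CDS), 2 in a 5′ UTR and 2 in a 3′ UTR, which made 14 exonic regions. Exonic regions were 30.7% of all coding-gene regions. Of the 16 intronic regions 9 still overlapped an exon with part of their interval, and counting any overlap raised the exonic number to 23. Counted by peak, 37 summits were intronic, 33 lay in CDS, 4 in a 5′ UTR and 3 in a 3′ UTR, so introns held most regions but not most peaks.

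**Figure D2:**
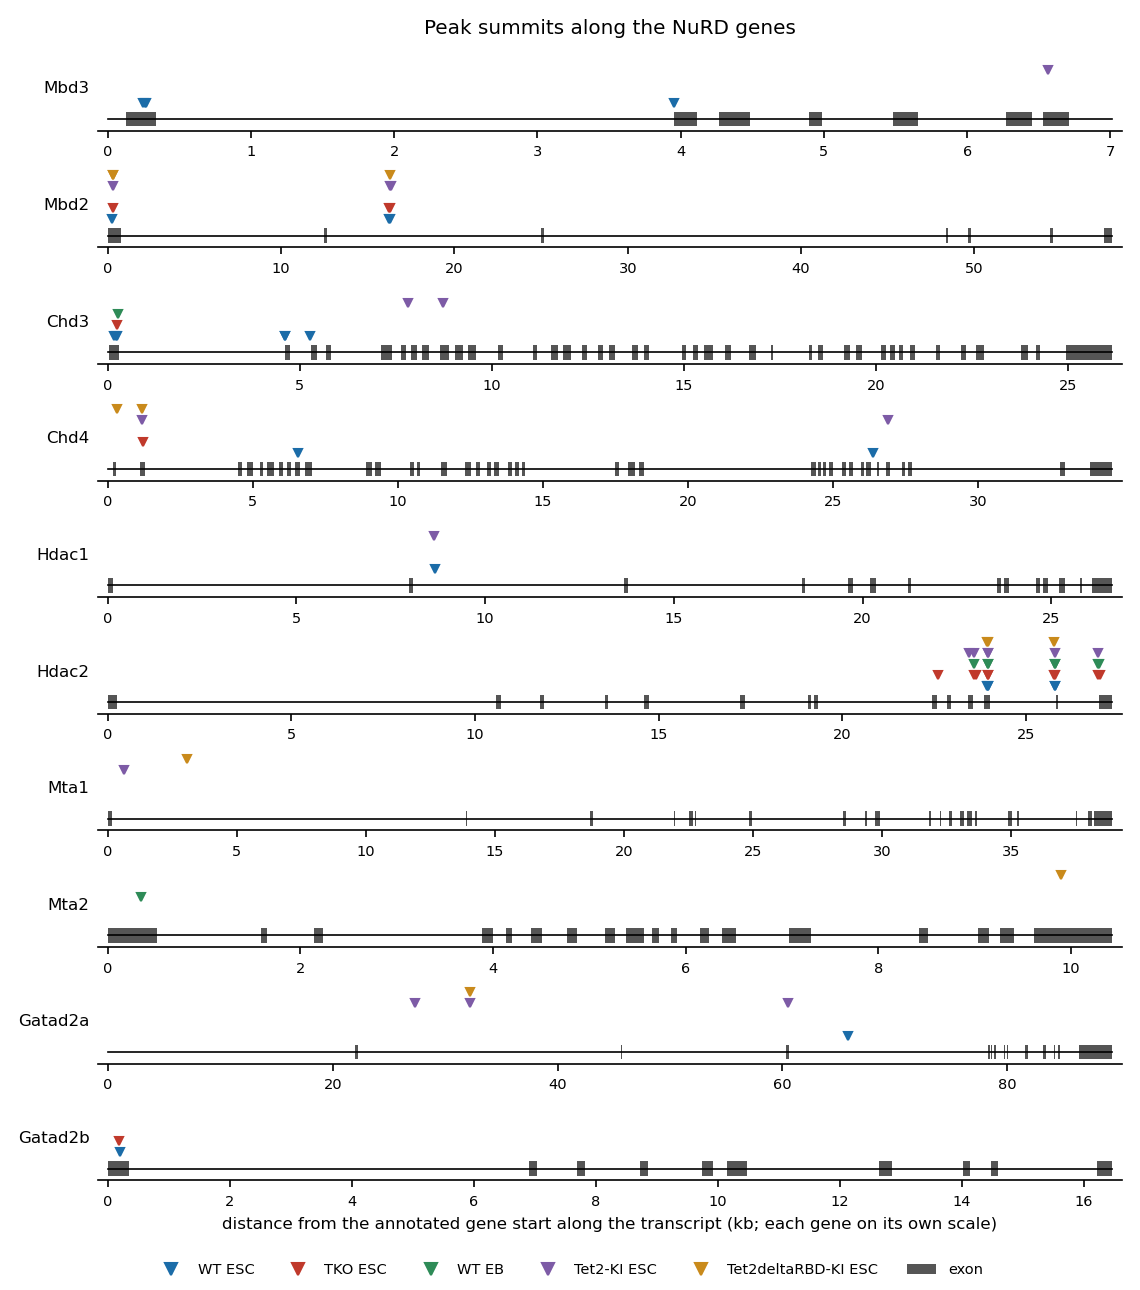
Summits of all 77 member peaks along each gene, in kb from the annotated gene start, with each gene on its own scale. Grey boxes are the exons of the coding transcript with most exons and triangles are peaks coloured by group; Hdac2 peaks gather in the last part of the gene, while those of Mbd3, Mbd2, Chd3 and Chd4 include summits at the start.

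Some regions lay at gene starts. A region lay within 500 bp of the annotated start in 6 members, with 1 region each in Mbd3, Mbd2, Chd3, Chd4, Mta2 and Gatad2b, 6 of 30 regions in all. Over the series 10.8% of coding-gene regions lay that close, and such a region was present in 9.10% of coding genes and in 28.3% of those with a peak. The Gatad2b model of this annotation is short. Its RefSeq start, placed on the assembly by an exact match of the RefSeq promoter sequence, lay 48473 bp upstream, so its region is internal and 5 members are left. The start regions of Chd4 and Mta2 were each seen in 1 library only. A peak of Tet2deltaRBD-KI ESC replicate 1 lay 264 bp after that RefSeq start, and one of Tet2-KI ESC replicate 1 lay 2137 bp after it. Both are outside the span used here. G + C made up 70.5% to 81.0% of the 5 start regions and 28.5% to 71.5% of the others, Gatad2b-1 among them.

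**Figure D3:**
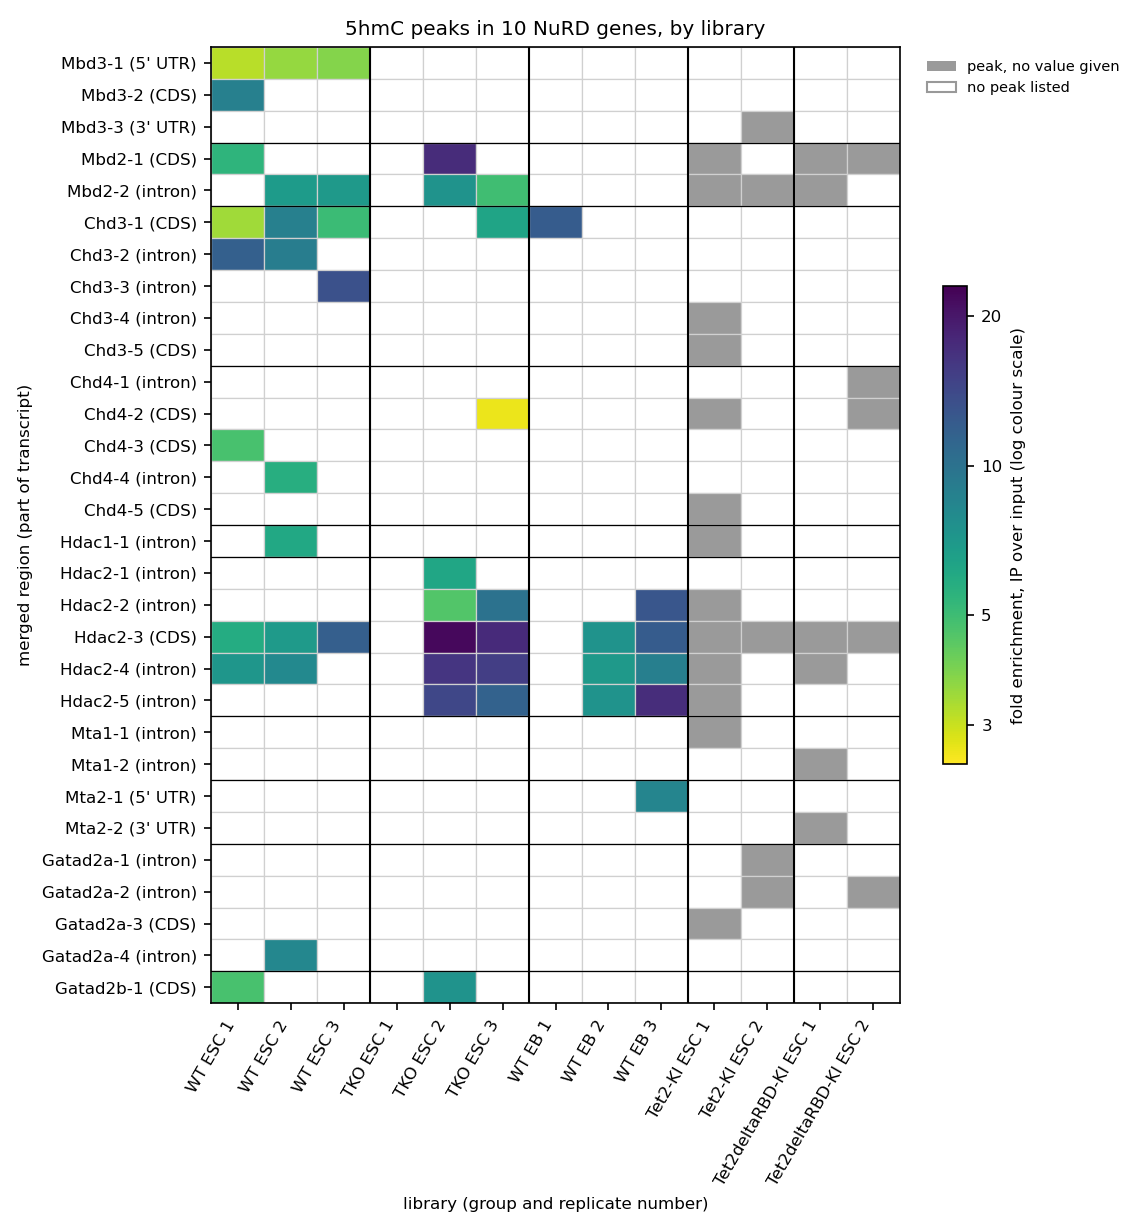
Peaks in the 30 member regions (rows, with the part of the transcript) across the 13 IP libraries (columns). Colour gives the fold enrichment of IP over input on a log scale, grey marks a peak in a list without values and white marks no listed peak; Hdac2-3 is filled in 11 libraries and Mbd3-1 in the 3 WT ESC libraries alone.

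Peaks were spread unevenly over the subunits. Hdac2 held 30 of the 77 peaks (39.0%), Mbd2 12, Chd3 10, Chd4 7, Mbd3 and Gatad2a 5 each, and Hdac1, Mta1, Mta2 and Gatad2b 2 each. Of 22380 coding genes 1.19% had at least as many peaks as Hdac2, and 32.2% had any. Spans ran from 7.0 kb in Mbd3 to 89.3 kb in Gatad2a, with 27.3 kb in Hdac2. The 10 genes held 8.96 regions per 100 kb of span against 1.91 over all coding genes, most of which had no peak. The 5 pluripotency genes looked up held 7.22, so a high density was not particular to NuRD. The short Gatad2b model was used for its span. Of the 30 regions, 17 were seen in 1 library (54.2% of all coding-gene regions), 4 in 2 and 9 in 3 or more, and 2 were seen in at least 8 libraries (4.74%).

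The fold enrichment, given for all but the knock-in libraries, is the ratio of IP to input at the summit, and it moves in steps. In WT ESC replicate 2, 663 of 7113 peaks held the same value of 5.20, and the step to the next common value was 0.867. Steps in the 9 lists ran from 0.399 to 0.905, and medians from 5.43 to 7.28. Of the 47 member peaks with a value, 14 held one shared by at least 10 peaks of their list. A difference of 1 or 2 steps is therefore close to the resolution of these values.

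Hdac2, a catalytic deacetylase of the complex, carried the most widespread region of the set. Hdac2-3 covered 246 bp of exon 12 and its borders, and all 11 of its summits lay in coding sequence. It had a peak in every library except TKO ESC replicate 1 and WT EB replicate 1. Fold enrichment was 5.86, 6.92 and 11.8 in the WT ESC libraries, 22.0 and 17.6 in TKO ESC replicates 2 and 3, and 7.34 and 12.2 in WT EB replicates 2 and 3. The 2 TKO ESC values were the highest of the 47 member values and lay above all 3 WT ESC values, whereas the WT EB values overlapped with WT ESC. In their own lists the TKO ESC peaks stood at percentiles 96.9 and 96.8, and the WT ESC peaks at 46.8, 70.4 and 94.2.

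The planned model took only regions with a value in every library compared. No member region had one in all 3 replicates of WT ESC and TKO ESC, or of WT ESC and WT EB. The comparison was therefore made on replicates 2 and 3, whose descriptions begin with 1703, using limma over all regions with a peak in the 4 libraries. Regions without a peak in any of these libraries are not in the fit, so it cannot show the loss of a peak. Of 1532 regions in every WT ESC library over the series, 36.6% had no peak in TKO ESC replicate 2 or 3. For Hdac2-3 the mean log2 fold enrichment was 4.30 in TKO ESC and 3.18 in WT ESC, a difference of 1.12 ± 0.43 (SE, n = 2 and 2). Its adjusted p was 0.397 by limma over 930 regions, and 0 of them passed 0.05 (0.00%; 113 had an unadjusted p under 0.05). The median difference over the 930 regions was 0.21, and Hdac2-3 lay at percentile 93.5 of them. Divided by the median of each list, the difference was 0.81, and it was 0.74 without WT ESC replicate 2 and 1.51 without WT ESC replicate 3. In a fit that was not planned, missing values were allowed and WT ESC replicate 1 was included. The difference was then 1.33 ± 0.42 (SE, n = 3 and 2), with an adjusted p of 0.397 by limma. The higher enrichment in TKO ESC at this exon was thus not separated from the spread between libraries, and an exact permutation test on 2 against 2 libraries, two-sided, gave p = 0.333, the smallest it can give.

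Between WT EB and WT ESC the same exon differed little. The mean log2 fold enrichment was 3.24 in WT EB and 3.18 in WT ESC, a difference of 0.07 ± 0.44 (SE, n = 2 and 2), with an adjusted p of 0.925 by limma over 641 regions. These were again only regions with a peak in every library compared, so the loss of a peak could not show. Of the 641 regions 0 passed the threshold (0.00%; 134 had an unadjusted p under 0.05), a count that other settings raised but never at a member. The sign of the Hdac2-3 difference turned with scaling to the list median, to -0.30, without WT ESC replicate 2, to -0.32, and without WT EB replicate 3, to -0.30.

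Hdac2-4 held exon 13 and intron on both sides of it. Its summits lay in the upstream intron, 21 to 59 bp from that exon, and G + C made up 28.5%. Fold enrichment was 7.14 and 8.09 in WT ESC replicates 1 and 2, 16.3 and 15.4 in TKO ESC replicates 2 and 3, and 7.01 and 8.87 in WT EB replicates 2 and 3. Tet2-KI ESC replicate 1 and Tet2deltaRBD-KI ESC replicate 1 also had a peak, and WT ESC replicate 3 had none. Again both TKO ESC values lay above the WT ESC values, while WT EB overlapped with WT ESC. A fit that was not planned allowed missing values. It left out WT ESC replicate 3, which had no value, and used WT ESC replicates 1 and 2, whose descriptions begin with 1608 and 1703. The log2 difference from WT ESC was 1.06 ± 0.42 (SE, n = 2 and 2) for TKO ESC and 0.05 ± 0.40 for WT EB, with adjusted p-values of 0.408 and 0.938 by limma. The WT EB difference was -0.04 against WT ESC replicate 2 alone.

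**Figure D4:**
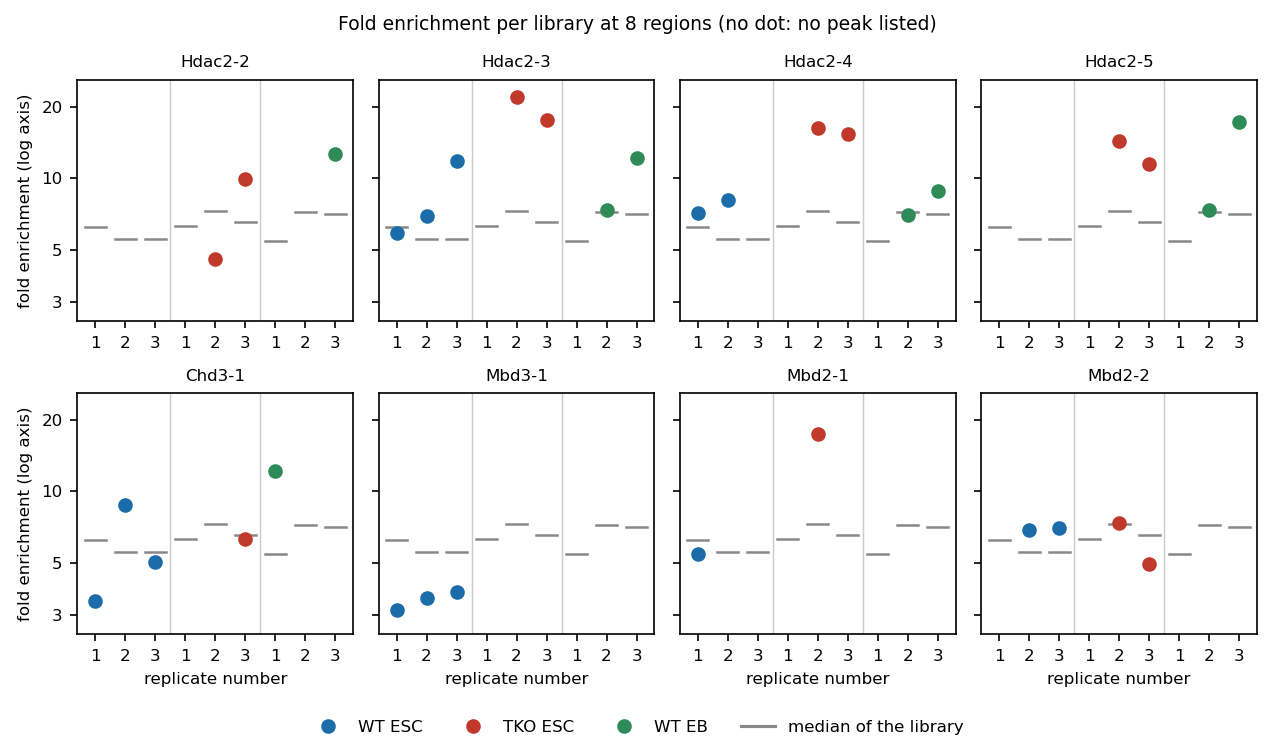
Fold enrichment of IP over input (y axis, log scale) per library at 8 member regions in the 3 groups with values, with the replicate number on the x axis. Grey bars are the median of each library and a missing dot means that no peak was listed; at Hdac2-3 and Hdac2-4 the red TKO ESC dots lie above the blue WT ESC dots, and at Mbd3-1 all dots lie below their medians.

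The remaining Hdac2 regions were absent from WT ESC. Hdac2-5 (chr10:36721204-36721481) spanned the end of the last intron and part of the last exon, exon 14, with summits in intron, coding sequence and 3′ UTR, and had values of 14.4 and 11.5 in TKO ESC replicates 2 and 3 and 7.34 and 17.3 in WT EB replicates 2 and 3. Hdac2-2 (chr10:36717706-36718080), at exon 11, had values of 4.56 and 9.97 in the same TKO ESC libraries and 12.7 in WT EB replicate 3. Tet2-KI ESC replicate 1 had a peak in both. Hdac2-1, at exon 9, was listed in TKO ESC replicate 2 alone, at 6.19. These regions lie 3′ of the middle of the gene, and no Hdac2 peak was nearer than 22613 bp to the gene start.

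Of 5 member regions listed in both TKO ESC replicates 2 and 3, 2 (Hdac2-2 and Hdac2-5) had no WT ESC peak, and over the whole series 18.8% of 1694 such regions had none. Of 3 listed in both WT EB replicates 2 and 3, 1 (Hdac2-5) had no WT ESC peak, against 22.2% of 1226. Hdac1, the paralogue of Hdac2, had 1 intronic region (chr4:129211191-129211408) in WT ESC replicate 2, at 6.07, and in Tet2-KI ESC replicate 1. The 2 deacetylase genes have nearly equal spans, 26.6 and 27.3 kb but held 2 and 30 peaks.

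Mbd3 gave the most regular pattern of WT ESC. Mbd3-1 (chr10:79861931-79862147) lay in the 5′ UTR of exon 1, 247 to 264 bp from the gene start, with 76.5% G + C and 66.5% purine. Fold enrichment was 3.16, 3.54 and 3.78 in the 3 WT ESC libraries, a mean of 3.49 ± 0.315 (SD, n = 3). No other library had a peak there, TKO ESC and WT EB included. The values were low, at percentiles 5.12, 8.88 and 11.8 of their own lists. Mbd3-2 was listed in WT ESC replicate 1 alone, at 8.83, and Mbd3-3, in the 3′ UTR, in Tet2-KI ESC replicate 2 alone.

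Across the members, 3 regions were present in every WT ESC library, namely Mbd3-1, Hdac2-3 and Chd3-1. Of these, 1 had no TKO ESC peak and 1 had no WT EB peak, and both times it was Mbd3-1. Over the series 32.2% of 1532 such regions had no TKO ESC peak and 54.9% no WT EB peak. Without TKO ESC replicate 1 and WT EB replicate 1 the counts were 1 and 2 of 3, since Chd3-1 then also lacked a WT EB peak, and the shares over the series were 36.6% and 59.9%. With 3 libraries against 3, presence in 1 group alone cannot give an exact two-sided p under 0.1, so no test was made. Expression of the members was not measured in these lists, and in bulk cells fewer cells with marked RNA cannot be told apart from less marked RNA per cell. Keeping only peaks at or above the median of their list left 0 regions in either count, because the Mbd3-1 values lie below it.

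Mbd2, which binds methylated CpG and replaces Mbd3 in part of the complexes, had a region in its first exon and another in its second intron. Mbd2-1, in coding sequence 243 to 314 bp from the gene start (chr18:70727986-70728256), had the highest G + C content, 81.0%. Its fold enrichment was 5.42 in WT ESC replicate 1 and 17.5 in TKO ESC replicate 2, and it was listed in Tet2-KI ESC replicate 1 and in both Tet2deltaRBD-KI ESC libraries. Mbd2-2 (chr18:70743981-70744289) lay at least 1515 bp from any exon. Its values were 6.85 and 7.01 in WT ESC replicates 2 and 3 and 7.35 and 4.93 in TKO ESC replicates 2 and 3, so the groups overlapped. The log2 difference, TKO ESC minus WT ESC, was -0.20 ± 0.40 (SE, n = 2 and 2), with an adjusted p of 0.840 by limma; it was -0.49 without TKO ESC replicate 2 and 0.08 without TKO ESC replicate 3. Both Tet2-KI ESC libraries and Tet2deltaRBD-KI ESC replicate 1 also had a peak. Neither Mbd2 region had a peak in any of the 3 WT EB libraries. That was common, since over the series 54.9% of the 1532 regions in every WT ESC library had none. The Mbd2 regions were in only 1 and 2 WT ESC libraries.

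The remodelling ATPases had 5 regions each. Chd3-1, in exon 1, had fold enrichments of 3.44, 8.79 and 5.06 in WT ESC, a mean of 5.77 ± 2.74 (SD, n = 3). It was 6.31 in TKO ESC replicate 3, inside the WT ESC range, and 12.2 in WT EB replicate 1, above it, and no knock-in library had a peak. Chd3-2 and Chd3-3, whose summits lay 6 to 14 bp from an exon, were listed in WT ESC alone, at 11.7 and 9.04 in replicates 1 and 2 and at 13.3 in replicate 3. Chd3-4 and Chd3-5 were listed in Tet2-KI ESC replicate 1 alone. The first 3 Chd3 regions also lie in Gm17305, a coding gene model on the opposite strand, and the lists give no strand, so their reads cannot be told apart between the genes.

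Chd4, the main ATPase of NuRD in most tissues, had no region in more than 3 libraries. Chd4-2 (chr6:125047086-125047306), in exon 2 around the start codon, was listed in TKO ESC replicate 3 at 2.67, percentile 0.797 of its list, and in Tet2-KI ESC replicate 1 and Tet2deltaRBD-KI ESC replicate 2. Chd4-3, in exon 9, was listed in WT ESC replicate 1 at 4.76, and Chd4-4, in an intron, in WT ESC replicate 2 at 5.71. Chd4-1 and Chd4-5 each came from 1 knock-in library. Chd4 thus had WT ESC peaks in 2 libraries, at different places.

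The scaffold and bridging subunits had few and scattered peaks. Mta1 had intronic regions in Tet2-KI ESC replicate 1 and in Tet2deltaRBD-KI ESC replicate 1. Mta2 had a 5′ UTR region in WT EB replicate 3, at 8.40, and a 3′ UTR region in Tet2deltaRBD-KI ESC replicate 1. Gatad2a had 4 regions, of which Gatad2a-2 was shared by Tet2-KI ESC replicate 2 and Tet2deltaRBD-KI ESC replicate 2, Gatad2a-4 was listed in WT ESC replicate 2 at 8.23, and the others came from 1 Tet2-KI ESC library each. Gatad2b-1 (chr3:90145666-90145872), in coding sequence, was listed in WT ESC replicate 1 at 4.77 and in TKO ESC replicate 2 at 7.35. No region of these 4 genes was present in every replicate of a group.

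Between the knock-ins, 2 member regions were present in both Tet2-KI ESC libraries, Hdac2-3 and Mbd2-2. Neither lacked a Tet2deltaRBD-KI ESC peak (0 of 2), while over the series 35.6% of 2999 such regions did. In the other direction, Hdac2-3 and Mbd2-1 were present in both Tet2deltaRBD-KI ESC libraries and neither lacked a Tet2-KI ESC peak (0 of 2, against 15.8% of 1373). The knock-in lists hold positions only, so no size of a difference can be given. Tet2-KI ESC replicate 1, the longest of all lists, held 14 of the 19 Tet2-KI ESC member peaks, and of its 13 member regions 8 had no Tet2deltaRBD-KI ESC peak, against 69.3% of its 9935 regions over the series.

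Per 1000 peaks of a group, member peaks numbered 1.28 in WT ESC (23 peaks), 1.75 in TKO ESC (15), 1.54 in WT EB (9), 1.18 in Tet2-KI ESC (19) and 1.38 in Tet2deltaRBD-KI ESC (11). By library the values were 2.05, 1.27 and 0.769 in WT ESC, 0.00, 1.85 and 2.15 in TKO ESC, and 2.01, 1.64 and 1.42 in WT EB. They overlapped between these groups over all replicates, while among replicates 2 and 3 both WT ESC values lay below those of TKO ESC and WT EB. With 2 libraries against 2 no exact two-sided p under 0.333 can be had, so no test was made. Hdac2 supplied 5 of the 8 and 4 of the 7 member peaks of TKO ESC replicates 2 and 3, and 3 of the 3 and 4 of the 5 of WT EB replicates 2 and 3, but 2 of 9, 2 of 9 and 1 of 5 in the WT ESC libraries. TKO ESC replicate 1 had no member peak, and the 1 member peak of WT EB replicate 1 lay in Chd3. The difference in the Hdac2 share between groups was not tested.

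Other genes of related complexes were counted in the same way. The other NuRD subunits Mta3, Chd5, Rbbp4, Rbbp7 and Cdk2ap1 all had a peak, 13 in 11 regions, and none of these regions was present in every WT ESC library. In a list of 11 further class I deacetylases and corepressor proteins, some of which also associate with NuRD, 8 had a peak, 121 in 34 regions, and Ncor1, a corepressor scaffold, held 61 of them and Rcor1, the scaffold of the CoREST complex, 25. Sin3b, Hdac3 and Sall4 had 0. Of 4 other methyl-CpG-binding domain genes, Mbd1 and Mbd6 had 1 peak each, and Mbd4 and Mbd5 had 0. Per 100 kb of span the NuRD members had 8.96 regions, the other subunits 4.88, the deacetylase list 3.75, the other methyl-CpG-binding domain genes 0.491, the pluripotency genes 7.22 and the Tet genes 3.14. Among 5 pluripotency genes, Pou5f1, Sox2 and Esrrb had peaks, and Nanog and Klf4 had 0.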

How the data were processed

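RNA 5hmC was profiled by hMeRIP-Seq in 13 IP libraries with matched inputs; the inputs entered only through the authors' peak calling. The authors discarded rRNA, tRNA and low-complexity reads, ran Trimmomatic, mapped with STAR to mm9 and RefSeq transcripts, and called peaks per library with MACS2 at q below 0.05; versions are not given in the sources used here. The deposited lists give 200 bp intervals centred on summits, and for WT ESC, TKO ESC and WT EB also the fold enrichment, a ratio of IP to input at the summit that the authors took from the caller. Knock-in lists hold positions only.

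Groups and replicate numbers came from sample titles. Intervals of all lists were merged at any overlap (Python 3.11.15, pandas 2.3.3, numpy 2.4.6), and placed on GENCODE M1 genes of NCBIM37; 99.7% of intervals lay on its chromosomes and 0 ran past a chromosome end. A region took the part of the transcript under most of its summits. Log2 fold enrichment (the highest peak of a library, no pseudocount) was compared with limma 3.58.1 in R 4.3.3 over all regions with a peak in every library compared, with Benjamini-Hochberg adjustment; the fit was tested on simulated data. All regions present in every replicate of a group, and for each member the region in most libraries, were named. The members and gene lists were chosen with earlier results of these data known. Because no member region had a peak in all 6 libraries of a comparison, the planned fit on 3 against 3 gave no member value, and replicates 2 and 3 were used. Same-numbered libraries deviated together weakly over the 283 regions with a value in all 6 WT ESC and TKO ESC libraries (r = 0.33, 0.13 and 0.12), less so over the 94 regions for WT EB (r = 0.29, 0.15 and -0.02), and not among replicates 2 and 3 alone (r = -0.03 over 930 regions and -0.01 over 641). A gene of the fixed lists and a few sequences are not reported here.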

Additional observations from a re-analysis of the deposited data

How the results depend on the processing

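Of 45 alternative counts, 30 stayed within 1.5 times the reported one. Under the overlap rule, the removal of regions in another coding gene, the stricter merging and merging over the compared groups, the 30 regions became 27 to 31, the 14 exonic regions 13 or 14, and the other counts kept their values. Regions in every WT ESC library with no TKO ESC peak (1) became 0 with peaks at or above the list median and 2 when 2 of 3 WT ESC libraries sufficed, and 1 to 2 when each library was left out. Those with no WT EB peak (1) became 0 and 3 under the same choices, 3 with the 1703 libraries only, 2 without both short lists (chosen after seeing the data), and 1 to 2 when each library was left out. Regions in both Tet2-KI ESC libraries with no Tet2deltaRBD-KI ESC peak (0) ranged from 0 to 8 when each library was left out. Exonic regions became 23 by any overlap.

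Adjusted p by limma ran from 0.370 to 0.947 over the alternatives for Hdac2-3 and Mbd2-2, and for Hdac2-4 from 0.407 to 0.768 (TKO ESC) and from 0.938 to 0.982 (WT EB). Fits without a replicate leave 1 library in a group, which is assumed to vary like the others, and the exact permutation tests (p 0.333 to 1.000) cannot go below 0.333, so neither speaks to stability. Over all regions, WT EB against WT ESC had 0 calls, but 2 lower with scaling to the list median, 7 higher and 2 lower without WT ESC replicate 2, and 14 higher and 4 lower without WT ESC replicate 3. Over the 94 regions with a value in all 6 libraries, which hold no member, it had 0 calls without and 7 lower with the replicate block. For Hdac2-3, TKO ESC minus WT ESC ranged from 0.74 to 1.51. Mbd2-2 turned to 0.08 without TKO ESC replicate 3 (range -0.49 to 0.08). Hdac2-3, WT EB minus WT ESC, turned to -0.30 with scaling to the list median and to -0.32 without WT ESC replicate 2. It turned to -0.30 without WT EB replicate 3 (range -0.32 to 0.45). Hdac2-4, WT EB minus WT ESC, turned to -0.04 against WT ESC replicate 2 alone. With the replicate block, the differences stayed at 1.12, -0.20 and 0.07, with adjusted p-values of 0.432, 0.849 and 0.913; it changed no call at these member regions. Depth is unknown, so absence of a peak cannot be bounded.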
